A study of Mus musculus with 6 samples.

Results

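The hippocampus on the side away from a controlled cortical impact was compared with the hippocampus of sham-operated mice. The comparison used the 2 libraries of left hippocampus after traumatic brain injury (TBI left) and the 2 libraries of right hippocampus after sham operation (sham), chosen by injury and hemisphere. They hold 19418 of the 28650 nuclei and are 4 of the 6 libraries of the series. All mice were male PS19 mice (Tau P301S), which carry a mutant human tau transgene driven by the mouse prion promoter. In each group 1 library came from mice given AAV-GFP, a control virus, and 1 from mice given AAV-VEGFC, a virus coding for a lymphatic growth factor. The impact was a mild TBI of the right hemisphere, so the TBI left tissue is contralateral to it. No sham left library was used, so injury and side differ together and cannot be told apart. The labels do not state age or how many mice a library holds. The p-values cover only the spread between these libraries, and that spread is largely estimated by pooling over genes.

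The 2 hippocampi are joined by commissural axons, many of which arise from CA3 pyramidal neurons and hilar mossy cells, so one side receives synaptic input from the other. CA1 pyramidal neurons send the main output of the hippocampus, dentate granule cells relay cortical input to CA3, and interneurons inhibit all of them. After focal brain injury, astrocytes and microglia near the lesion are known to take on reactive states, and a rise of circulating glucocorticoids is a general response to stress. Nuclear RNA was read, so transcripts held in the cytoplasm are under-represented.

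Sham GFP had 4312 nuclei and 15718327 unique molecular identifiers (UMIs), and sham VEGFC had 6002 nuclei and 18379148 UMIs. TBI left GFP had 5428 nuclei and 17622789 UMIs, and TBI left VEGFC had 3676 nuclei and 16062469 UMIs. Median UMIs per nucleus were 3157 in sham GFP, 2689 in sham VEGFC, 2835 in TBI left GFP and 3703 in TBI left VEGFC. The VEGFC pair thus set the deepest library per nucleus against the shallowest, and the part of depth in the folds was not tested. The TBI left VEGFC library also stood apart in makeup. Its inhibitory neuron cluster 5 made up 0.0544% of nuclei against 1.44%, 1.5% and 3.74% in sham GFP, sham VEGFC and TBI left GFP, and its inhibitory cluster 2 made up 1.25% against 3.94%, 6.4% and 3.11%. Of 19382 distinct barcodes in the 4 libraries, 36 occurred in more than 1. Marker genes fitted the names of the neuron subsets. The summed CA1 markers were at 824 to 906 CPM in the CA1-like nuclei and at 16.1 to 22.3 CPM in the dentate granule-like nuclei, and the summed CA3 markers were at 2180 to 2470 CPM in the CA3-like nuclei. CPM are a gene's UMIs per 1000000 UMIs of that class in that library.

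Few genes differed. Counts were summed per class and library and tested with edgeR, with the vector as a block and Benjamini-Hochberg adjustment over all genes tested in a class. Over the 9 classes of the authors' annotation, 96 of 77943 tests passed an adjusted p of 0.05, of which 77 were higher and 19 lower in TBI left. In 4 subsets of neurons, which overlap these classes, 79 of 47280 tests passed, 53 higher and 26 lower. In each class or subset, 3.93% to 6.76% of genes had an unadjusted p under 0.05, where a threshold of 0.05 passes 5% if nothing differs. The calls depended strongly on the model. DESeq2 called 0 to 3 genes in a class or subset, with 3 to 100 at an unadjusted p under 0.05, and of 92 named edgeR calls 2 were also called by DESeq2, both of them Shoc1.

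**Figure D1:**
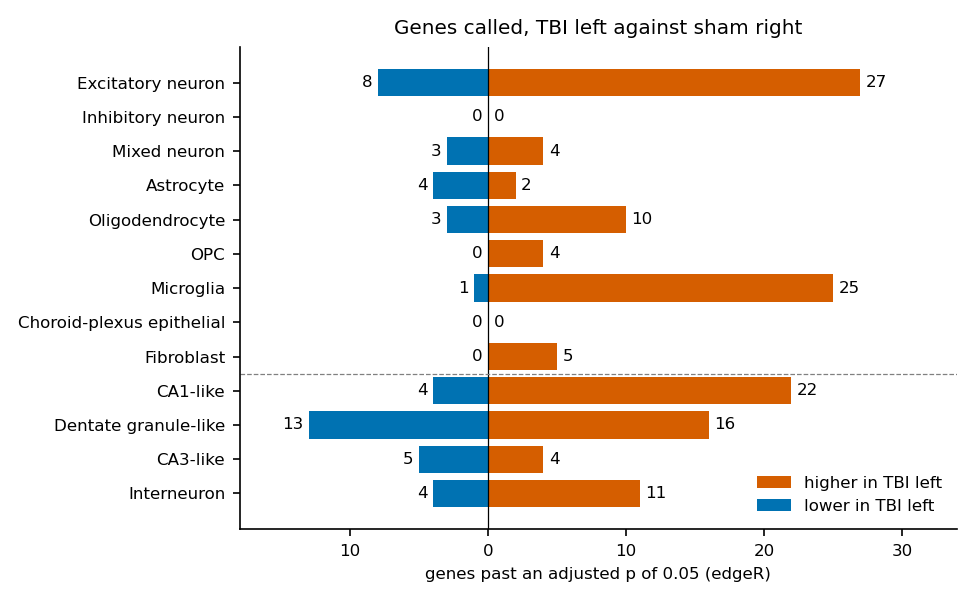
Number of genes past an adjusted p of 0.05 in edgeR (x axis, lower to the left and higher to the right) in each of 9 classes and, under the dashed line, 4 neuron subsets that overlap them. Excitatory neurons have 27 genes higher and 8 lower, microglia 25 and 1, and inhibitory neurons and choroid plexus 0 in both directions.

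In CA1-like pyramidal neurons, 26 of 12089 genes passed (0.215%), 22 higher and 4 lower in TBI left. The clearest was Shoc1, a gene known for crossover formation in meiosis, at mm10 chr4:59041984-59138983. Its level was 32.2 CPM in sham GFP, 30.2 in sham VEGFC, 96.3 in TBI left GFP and 128 in TBI left VEGFC. Both TBI left libraries lay above both sham libraries. The log2 fold was 1.86 ± 0.16 (SE), with an edgeR adjusted p of 5.37e-27 that rests on a spread pooled over genes. Shoc1 was called under all 10 alternative settings. Outside the excitatory neurons Shoc1 did not pass the filter on low counts in any class.

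Other genes also rose in CA1-like neurons. Ntng1, which codes for netrin-G1, a membrane-anchored synaptic adhesion protein, was at 47 and 68.3 CPM in sham GFP and sham VEGFC and at 93.8 and 125 CPM in TBI left GFP and TBI left VEGFC (log2 fold 0.94 ± 0.15, adjusted p 3.59e-07). Slit2, a secreted ligand of Robo receptors, was at 22 and 18.1 CPM in sham and at 31.4 and 58 CPM in TBI left (1.16 ± 0.2, adjusted p 3.25e-05). The groups did not overlap for either gene, which was a condition for naming genes by fold. Of all genes tested in CA1-like neurons, 15.1% had both TBI left libraries above both sham libraries and 18.7% had both below. The VEGFC library was the higher of the TBI left pair for both Ntng1 and Slit2. Spock1, a matrix proteoglycan, had a log2 fold of 1.74 ± 0.35 with 3.81 and 6.05 CPM in sham against 16.3 and 16.6 CPM in TBI left. Kirrel3, a synaptic adhesion gene, rose by 0.68 ± 0.14, and Pard3, which sets cell polarity, by 0.7 ± 0.15. Ring1, a subunit of Polycomb repressive complex 1, rose by 0.82 ± 0.17, with 39.4 and 37.4 CPM in sham against 65.3 and 68.9 CPM in TBI left. Ccdc7b and the urate transporter gene Slc2a9 also rose, by 0.84 ± 0.2 and 0.71 ± 0.17, and were called under 2 and 3 of 10 alternative settings.

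In CA1-like neurons 4 genes were lower. Ciart, a repressor within the circadian clock, was at 33 and 29.2 CPM in sham and at 17.6 and 13.5 CPM in TBI left (log2 fold -0.99 ± 0.23, edgeR adjusted p 0.0153). Rad51ap2 fell by 0.9 ± 0.22 and Dtwd1 by 0.78 ± 0.2 on the log2 scale, and each was called under 2 of 10 alternative settings. Ifit1, an interferon-induced gene, was at 5.92 and 11.4 CPM in sham and at 1.68 and 1.31 CPM in TBI left (-2.46 ± 0.57), a low level throughout. With 1 library left out in turn, 2 genes (without sham VEGFC) to 103 genes (without TBI left GFP) were called in CA1-like neurons. Those fits also had no vector term, and dropping that term alone gave 16. With library totals in place of TMM, 9 genes were called, all of them higher.

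**Figure D2:**
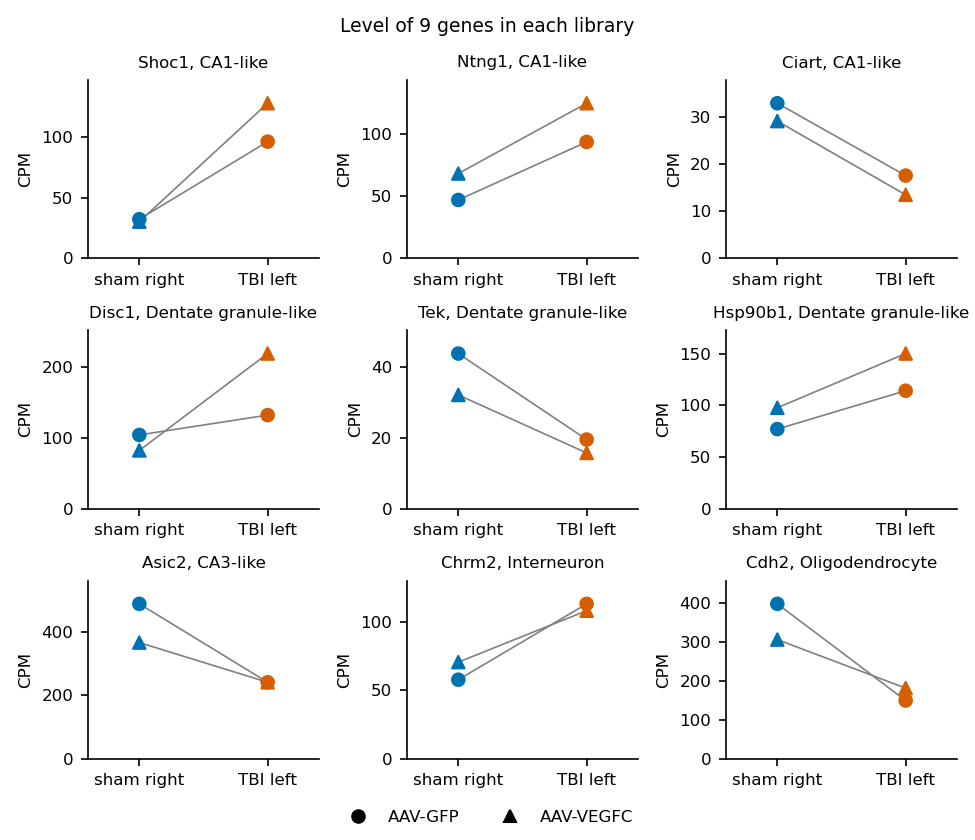
Level in CPM (y axes, from 0) of 9 genes in the class or subset named above each panel, in the sham right and TBI left libraries. Circles are AAV-GFP and triangles AAV-VEGFC libraries, and lines join libraries of the same vector. In every panel both TBI left points lie on the same side of both sham points, which was a condition for naming these genes.

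In dentate granule-like neurons, 29 of 12684 genes passed (0.229%), 16 higher and 13 lower. Disc1, a scaffold protein gene named for a translocation found in schizophrenia (chr8:125054195-125261858), was at 104 and 82.1 CPM in sham GFP and sham VEGFC and at 132 and 219 CPM in TBI left GFP and TBI left VEGFC. The log2 fold was 0.9 ± 0.12 (adjusted p 1.6e-09), and the VEGFC pair differed more than the GFP pair, at 1.42 against 0.34. In CA1-like neurons Disc1 was at 12.1 to 13.1 CPM in all 4 libraries. Slc15a2, a peptide transporter, had 13.1 and 15.7 CPM in sham against 41.2 and 27.8 CPM in TBI left and rose by 1.24 ± 0.22. Ulk4, a pseudokinase linked to cilia, rose by 0.83 ± 0.18. C1ql3, a secreted organiser of synapses, rose by 0.47 ± 0.1, with 360 and 367 CPM in sham against 503 and 497 CPM in TBI left. Brd9, of the BAF chromatin remodelling complexes, and Zmym1 rose by 0.49 ± 0.12 and 0.6 ± 0.14. Rps29, a ribosomal protein gene with near-identical pseudogene copies, rose by 0.57 ± 0.13, and this fold is uncertain where reads could be split among copies.

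Hsp90b1, a chaperone of the endoplasmic reticulum, was at 76.9 and 97.5 CPM in sham and at 114 and 150 CPM in TBI left in dentate granule-like neurons (log2 fold 0.6 ± 0.12, edgeR adjusted p 0.000818). It was the called member of the unfolded protein response list, in which 14 of 21 tested members had a positive fold and the median was 0.11, against 0 over all genes tested. The other members with the smallest p were Hspa5, with a log2 fold of 0.48 ± 0.14 (adjusted p 0.168), and Calr, with 0.44 ± 0.15 (adjusted p 0.42). In CA1-like neurons 12 of 21 members had a positive fold and 0 were called.

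Tek codes for TIE2, the receptor for angiopoietins, best known from endothelial cells. In dentate granule-like neurons it was at 43.8 and 32.1 CPM in sham GFP and sham VEGFC and at 19.5 and 15.7 CPM in TBI left GFP and TBI left VEGFC. The groups did not overlap, as the naming rule required. Tek fell by 1.1 ± 0.2 on the log2 scale (edgeR adjusted p 0.000121), and by 1.01 ± 0.14 in all excitatory neurons (edgeR adjusted p 0.000189). Its fold was negative in each of the 8 classes and subsets in which it was tested, from -1.1 to -0.64. The 5 other endothelial markers (Flt1, Cldn5, Pecam1, Emcn, Ly6c1) summed to 6.96 and 17.1 CPM in sham and 11.1 and 16.1 CPM in TBI left in dentate granule-like neurons, with overlapping groups. In the inhibitory class, where the fold of Tek was -1.02 ± 0.24 and did not pass, they summed to 13.9 and 13.5 CPM in sham and 9.46 and 8.74 CPM in TBI left. Of the list of vascular growth factors, angiopoietins and their receptors, 8 of 13 were tested in dentate granule-like neurons, and Tek was the 1 called. Vegfc itself was at 4.09 and 7.34 CPM in sham and 5.88 and 5.7 CPM in TBI left, with overlapping groups.

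Several further genes fell in dentate granule-like neurons. Cntn4, an axonal adhesion gene, was at 242 and 302 CPM in sham and 215 and 157 CPM in TBI left (log2 fold -0.55 ± 0.11). Unc5d, a netrin receptor, fell by 0.45 ± 0.1, and Dpp10, an auxiliary subunit of potassium channels, by 0.67 ± 0.16. Slc27a2, an acyl-CoA synthetase for fatty acids, fell by 0.99 ± 0.23, Dtwd1 by 0.81 ± 0.19 and Rad51ap2 by 0.66 ± 0.16. Ttr, the main secretory product of choroid plexus, also passed, at 238 and 493 CPM in sham and 222 and 201 CPM in TBI left (-0.71 ± 0.11), and so did the tetraspanin gene Cd9 (-0.7 ± 0.16). The 6 choroid plexus markers, all detected and with Ttr among them, summed to 274 and 533 CPM in sham and 263 and 242 CPM in TBI left in these neurons. Ttr made up most of that sum in each library. Ttr was highest in sham VEGFC in each class and subset tested, and the part of choroid plexus RNA in these calls was not tested. With library totals 1 gene was called in dentate granule-like neurons, and with 1 library left out 15 (without either sham library) to 138 (without TBI left GFP).

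In CA3-like pyramidal neurons, 9 of 9905 genes passed (0.0909%), 4 higher and 5 lower. Asic2, which codes for an acid-sensing ion channel (chr11:80880169-81968457), was at 488 and 366 CPM in sham GFP and sham VEGFC and at 241 CPM in each TBI left library. The groups did not overlap, as the naming rule required, with a log2 fold of -0.82 ± 0.15 (edgeR adjusted p 0.000939). Bcl11b, a transcription factor gene, fell by 1.28 ± 0.25, Frmd5 by 1.77 ± 0.37 and Egfem1 by 0.73 ± 0.14. Abcb10, a transporter of the mitochondrial inner membrane, rose by 1.25 ± 0.29, with 21.2 and 15.8 CPM in sham against 29.8 and 55.2 CPM in TBI left. It was called under 2 of 10 alternative settings. Named without passing were Ulk4 (1.06 ± 0.26, adjusted p 0.127) and Fstl1 (1.12 ± 0.29, adjusted p 0.161). With 1 library left out, 4 genes (without TBI left VEGFC) to 69 genes (without TBI left GFP) were called, and 5 with library totals.

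In hippocampal interneurons, 15 of 12602 genes passed (0.119%), 11 higher and 4 lower. Chrm2, the M2 muscarinic acetylcholine receptor, was at 57.7 and 70.5 CPM in sham and 113 and 108 CPM in TBI left (log2 fold 0.8 ± 0.14, edgeR adjusted p 6.85e-05). Adarb2, an RNA-binding gene that marks interneurons of the caudal ganglionic eminence, was at 2590 and 2910 CPM in sham and 3280 and 3740 CPM in TBI left (0.36 ± 0.07). The groups did not overlap for either gene, as the naming rule required. Of the clusters pooled here, inhibitory cluster 3 made up 2.81% and 2.92% of nuclei in sham and 3.1% and 3.13% in TBI left. Inhibitory cluster 6 made up 1.53% and 1.35% in sham and 1.14% and 1.12% in TBI left, while clusters 1 and 8 overlapped between groups. The part of this mix in the interneuron folds was not tested. Il1rapl2 rose by 0.44 ± 0.1, Thsd4, which codes for a matrix protein, by 0.86 ± 0.2, and Btk, a kinase known from blood cells, by 1.36 ± 0.33 from 7.7 and 7.23 CPM. Phldb2 was at 47.8 and 49.7 CPM in sham and 22.2 and 23.4 CPM in TBI left (-1.08 ± 0.2), and Fhit fell by 0.54 ± 0.12. Ptgds, a prostaglandin D synthase abundant in leptomeninges and oligodendrocytes, fell by 0.68 ± 0.12, with its highest level of 259 CPM in sham VEGFC. The summed choroid plexus markers in the interneurons, with Ttr among them, were 368 and 496 CPM in sham and 411 and 399 CPM in TBI left. Ttr, itself called there, was at 170 and 312 CPM in sham and 188 and 152 CPM in TBI left. Without either sham library 0 genes were called in interneurons, and without TBI left GFP 46.

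The broad neuron classes gave few further genes. In all excitatory neurons 35 of 16145 genes passed (0.217%), 27 higher and 8 lower, and 19 of the 35 were also called in a pyramidal or granule subset. With library totals 84 genes were called, 54 higher and 30 lower, and 13 (without TBI left VEGFC) to 185 (without TBI left GFP) with 1 library left out. Rpl29, a ribosomal protein gene with near-identical copies, rose by 0.79 ± 0.15, and Glis3, a zinc finger transcription factor gene, by 0.57 ± 0.11. Cux2, a marker of upper cortical layers, fell by 0.74 ± 0.13, and Dach1 by 0.61 ± 0.13. The share of nuclei in excitatory cluster 10 was lower as well, at 2.32% and 1.82% in sham and 1.23% and 0.707% in TBI left, and its part in these folds was not tested. Cux2 did not pass the filter on low counts in the CA1-like, dentate granule-like or CA3-like nuclei.

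In the broad inhibitory class 0 of 14062 genes passed in edgeR (0%), with 611 at an unadjusted p under 0.05, and DESeq2 also called 0. Among genes that met the other conditions for being named, Zfp521 and Clic4 had the smallest p of the lower genes, with log2 folds of -1.19 ± 0.18 (adjusted p 0.418) and -0.98 ± 0.16 (adjusted p 0.6), and mt-Nd3 and Btk of the higher, with 0.88 ± 0.17 (adjusted p 0.616) and 1.74 ± 0.39 (adjusted p 0.678). This class holds clusters 2 and 5, whose shares were lowest in TBI left VEGFC. Without TBI left GFP 733 genes were called and without TBI left VEGFC 232. In the mixed neuron class 7 of 9074 genes passed (0.0771%), 4 higher and 3 lower. Shisa6, an auxiliary protein of AMPA receptors, was at 265 and 240 CPM in sham and 93.8 and 82 CPM in TBI left (-1.55 ± 0.23), and Rorb, a nuclear receptor gene of sensory cortex and thalamus, at 26.6 and 32.4 CPM in sham and 132 and 92.1 CPM in TBI left (1.95 ± 0.33). Ring1 (1.39 ± 0.29), the guidance ligand Sema3e (2.49 ± 0.6) and Sfta3-ps (2.77 ± 0.55) rose too, and the matrix gene Hmcn1 fell by 1.69 ± 0.36. Sema3e had 1 and 4 UMIs in sham and 26 and 27 in TBI left, and Sfta3-ps 4 and 2 against 55 and 21. Both passed the filter on low counts through TBI left. The 6 thalamus and habenula markers, all detected and with Rorb among them, summed to 157 and 120 CPM in sham and 278 and 281 CPM in TBI left mixed neurons, and their part in these folds was not tested. With library totals 0 genes were called, and with 1 library left out 8 (without TBI left VEGFC) to 43 (without sham VEGFC) genes were called.

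In the same direction, 8 genes were called in at least 3 of the 13 classes and subsets, which overlap. The clone-named transcript AC149090.1 was called in 7 of the 13, in 3 of the 9 classes, and its fold was positive in all 13, from 0.1 to 1.21. In CA3-like neurons it was at 326 and 272 CPM in sham and 722 and 658 CPM in TBI left (log2 fold 1.21 ± 0.14, edgeR adjusted p 5.09e-09). Gm16105 was called in 5 of the 7 classes and subsets in which it was tested. Prrt1, an AMPA receptor auxiliary protein gene (chr17:34629533-34633126), was called in 4, and its fold was positive in 10 of 11. In interneurons it was at 31.3 and 36.1 CPM in sham and 59.3 and 57.5 CPM in TBI left (0.8 ± 0.18, edgeR adjusted p 0.0137). Ring1 and A930015D03Rik were called in 3 each and had a positive fold in all 11 and 12 tested, while Dtwd1 and Rad51ap2 were called in 3 each and had a negative fold in all 9 and 7.

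The median fold of mitochondrially encoded transcripts was positive in most classes and negative in some, and a difference between classes was not tested. mt-Nd3, a subunit gene of respiratory complex I, was called in 4 of the 11 classes and subsets in which it was tested and had a positive fold in all 11. In dentate granule-like neurons it was at 23.3 and 28 CPM in sham and 41.2 and 62.7 CPM in TBI left (log2 fold 1.02 ± 0.18, edgeR adjusted p 2.17e-05). In CA1-like neurons all 11 tested mitochondrial transcripts had a positive fold with a median of 0.4, and 2 were called, mt-Nd3 and mt-Nd2 (0.61 ± 0.16, adjusted p 0.0449). Next were mt-Co3 (0.44 ± 0.13, adjusted p 0.176) and mt-Nd4 (0.47 ± 0.15, adjusted p 0.295). In dentate granule-like neurons 13 of 13 were positive, with a median of 0.26, made up of 0.06 in the GFP pair and 0.57 in the VEGFC pair. In astrocytes 9 of 12 were negative, with a median of -0.1, and 0 had an unadjusted p under 0.05 in edgeR. In the GFP pair the median was -0.34 in CA3-like neurons, -0.21 in interneurons and -0.16 in inhibitory neurons. Of the 48 nuclear-encoded oxidative phosphorylation genes, 19 had a positive and 29 a negative fold in dentate granule-like neurons and 0 were called. The mean percent of mitochondrial UMIs per nucleus was 0.153 and 0.134 in sham and 0.155 and 0.163 in TBI left. The part of residual cytoplasmic RNA in these folds was not tested.

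**Figure D3:**
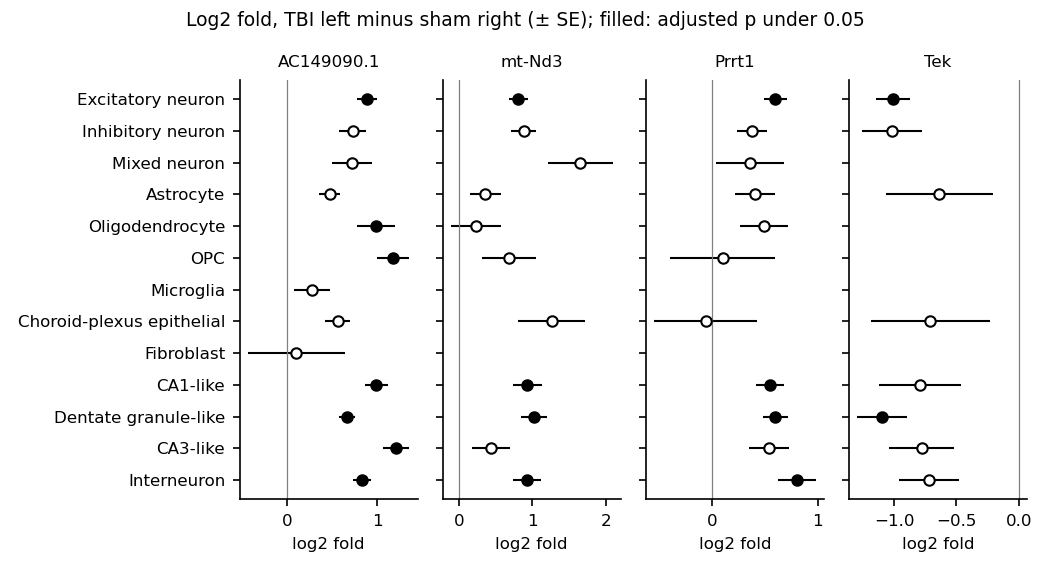
Log2 fold of TBI left minus sham right (x axis, ± SE) of 4 genes in each class or subset where the gene was tested. Filled points passed an adjusted p of 0.05 in edgeR. AC149090.1 lies between 0.1 and 1.21 and Tek between -1.1 and -0.64.

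In oligodendrocytes, 13 of 7146 genes passed (0.182%), 10 higher and 3 lower. Cdh2, which codes for N-cadherin, was at 399 and 307 CPM in sham GFP and sham VEGFC and at 150 and 182 CPM in TBI left GFP and TBI left VEGFC. This was the clearest fall in these cells, with a log2 fold of -1.04 ± 0.17 (edgeR adjusted p 4.27e-06), and it was called under 9 of 11 alternative settings. In the other 10 classes and subsets tested the fold of Cdh2 lay between -0.34 and -0.06. Tubb3, a neuronal tubulin gene, fell by 1.29 ± 0.27, from 119 and 84.6 CPM to 65 and 20.9 CPM. The other lower gene, Fam155a, drew 31.8% of its UMIs from 1 nucleus. Neuronal RNA, the share of UMIs from 91 genes high in neurons and low in glia, was 0.116% and 0.133% in sham and 0.122% and 0.132% in TBI left oligodendrocytes.

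In oligodendrocytes 10 genes rose. Cdk8, the kinase of the Mediator complex (chr5:146231230-146302874), was at 313 and 222 CPM in sham and 377 and 541 CPM in TBI left (log2 fold 0.79 ± 0.15, adjusted p 0.000827). Sgk3, a kinase of the serum and glucocorticoid-regulated family, rose by 0.95 ± 0.2 and Ppp2r2c, a regulatory subunit of protein phosphatase 2A, by 1.05 ± 0.25. Brd9 rose by 1.09 ± 0.27, Arid5b by 0.72 ± 0.18, Arhgap31 by 1.17 ± 0.29, Arrdc2 by 0.83 ± 0.2 and the sulfate transporter gene Slc13a1 by 0.68 ± 0.17. Arid5b was called under 1 of 11 alternative settings and Arhgap31 under 3 of 11. DESeq2 called 0 genes in oligodendrocytes, the model with no vector term called 1 (Cdh2), and with 1 library left out 6 to 20 genes were called. With library totals the calls were 10 higher and 8 lower.

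Genes known to respond to glucocorticoids shared a direction in oligodendrocytes. All 14 tested members of the list of 16 had a positive fold, with a median of 0.46 against 0 over all genes tested. In 10 of them both TBI left libraries lay above both sham libraries, as in 16.5% of all genes tested in this class. Zbtb16, a transcription factor gene induced by glucocorticoids, was the 1 member called, at 203 and 283 CPM in sham and 406 and 348 CPM in TBI left (0.65 ± 0.16, edgeR adjusted p 0.0329). Sgk1, the kinase for which the family is named, was at 387 and 278 CPM in sham and 417 and 556 CPM in TBI left (0.57 ± 0.15, adjusted p 0.0517). Plin4, Klf9 and Mt1 had log2 folds of 0.68 ± 0.19, 0.51 ± 0.22 and 0.45 ± 0.19, and Fkbp5, a chaperone that tempers the receptor, 0.45 ± 0.2 (adjusted p 0.643). Nr3c1, the glucocorticoid receptor gene, had 0.07 ± 0.18. Unadjusted p was under 0.05 in 7 members, where 6.76% of all genes tested had such a p. By pair, 11 of 14 were positive with GFP and 13 of 14 with VEGFC. Sgk1 differed mostly in the VEGFC pair and Plin4, at 98.2 and 157 CPM in sham and 249 and 160 CPM in TBI left, mostly in the GFP pair.

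Other classes had 0 members called. In OPC (oligodendrocyte precursor cells) 6 of 7 tested members had a positive fold, with a median of 0.44, and in fibroblasts 4 of 6, with a median of 0.43. In astrocytes 12 of 14 tested members had a positive fold, with a median of 0.26 and 0 called. Zbtb16 was at 78.4 and 111 CPM in sham and 120 and 140 CPM in TBI left astrocytes (log2 fold 0.49 ± 0.14, adjusted p 0.259). Cdkn1a, a cell cycle inhibitor gene, had the smallest p, with 1.6 ± 0.42 (adjusted p 0.149) at levels of 3.86 to 17.4 CPM. In all excitatory neurons 8 of 15 members were positive with a median of 0, and in dentate granule-like neurons 5 of 11. Whether the list differed between classes was not tested.

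**Figure D4:**
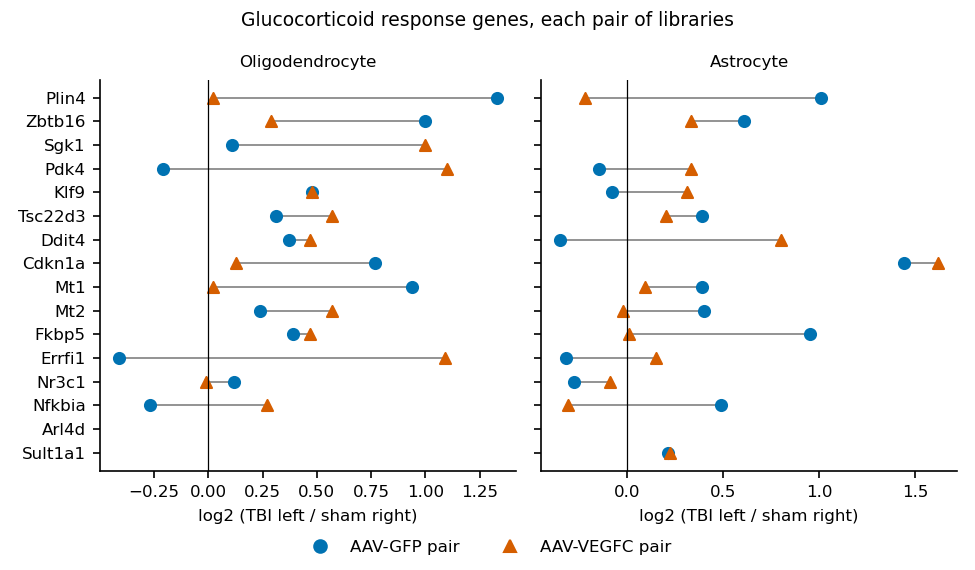
Log2 ratio of TBI left to sham right CPM (x axis) for 16 glucocorticoid response genes in oligodendrocytes and astrocytes, for the pair of AAV-GFP libraries (circles) and the pair of AAV-VEGFC libraries (triangles). Members with no points did not pass the filter on low counts. In oligodendrocytes 11 of 14 genes are above 0 in the GFP pair and 13 of 14 in the VEGFC pair.

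Promoters of 2 list members held a glucocorticoid-type palindrome. The promoter windows of RefSeq (GRCm38.p6, from 250 bases before to 50 after a transcript start) were searched on both strands for GNACA and TGTNC with any 3 bases between, a palindrome that is its own reverse complement. It was present in 156 of 32851 windows (0.475%), and in the windows of Sgk1 and Mt1 among the 14 members with a window. For the clock genes the E-box CACGTG, also its own reverse complement, was present in 7.15% of windows and in 5 of the 16 members with a window, Ciart and Bhlhe41 included. No printed stretch holds both motifs. A match is a description of the sequence only. The Ciart window held 3 matches, of which 2 are printed because the third stretch overlaps the second. The stretches show the motifs in capitals, 5′ to 3′ on the strand of the gene, at chr10:21993694-21993723 (Sgk1, plus strand), chr8:94178987-94179016 (Mt1, plus strand), chr3:95882327-95882356 and chr3:95882269-95882298 (Ciart, minus strand) and chr6:145865556-145865585 (Bhlhe41, minus strand).
Sgk1: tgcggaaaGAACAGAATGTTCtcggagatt
Mt1: cactatagGGACATGATGTTCcacacgtca
Ciart, upstream match: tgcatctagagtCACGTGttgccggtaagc
Ciart, next match: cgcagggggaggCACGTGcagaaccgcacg
Bhlhe41: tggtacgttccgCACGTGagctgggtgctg

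Clock genes were mixed in direction, with few calls. Of 19 list members, Ciart in CA1-like neurons was the 1 called in a neuron subset, and Rorb in mixed neurons was the 1 called in a class. Bhlhe41, another repressor of the clock, was at 58 CPM in each sham library and at 39.4 and 38.8 CPM in TBI left CA1-like neurons (log2 fold -0.55 ± 0.17, edgeR adjusted p 0.262), and Npas2, an activator, had 0.34 ± 0.14 (adjusted p 0.87). In astrocytes 0 of 19 tested clock genes were called, 7 with a positive and 12 with a negative fold and a median of -0.09. Npas2 was at 93.5 and 97.1 CPM in sham and 124 and 136 CPM in TBI left (0.48 ± 0.14, adjusted p 0.286), while Per3 was at 317 and 322 CPM in sham and 265 and 207 CPM in TBI left (-0.41 ± 0.12, adjusted p 0.298). Dbp, an output gene of the clock, was at 81.8, 78.4 and 78.3 CPM in sham GFP, sham VEGFC and TBI left GFP and at 41.2 CPM in TBI left VEGFC, so 1 library was low. The labels do not state the hour at which tissue was taken.

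In astrocytes, 6 of 12548 genes passed (0.0478%), 2 higher and 4 lower. Dalrd3, a cofactor of tRNA methylation, was at 44.7 and 41.4 CPM in sham and 64.4 and 88.6 CPM in TBI left (log2 fold 0.87 ± 0.18, edgeR adjusted p 0.0424). Grip1, a scaffold for AMPA receptors, was at 149 and 111 CPM in sham and 81.2 and 72.8 CPM in TBI left (-0.72 ± 0.15), and Clstn2, a calsyntenin of synapses, fell by 1.39 ± 0.29. Snhg11, a long non-coding RNA high in neurons, also passed (-0.79 ± 0.16), but 4 sham nuclei had over 2% neuronal RNA, and without them its fold was 0.1. Clstn2 then lost its call as well, with a fold of -1.12 (edgeR adjusted p 0.0878). Hpse2 and Runx1 drew 32.7% and 28.6% of their UMIs from 1 nucleus each, and Runx1 had no UMI in either TBI left library. Without nuclei over 2% neuronal RNA 16 genes were called, 9 higher and 7 lower, among them Kcnk1, a potassium channel gene, at -0.92 and Ulk4 at 1.38, chosen after their values were seen. DESeq2 called 0, and with 1 library left out 12 (without sham GFP) to 100 (without TBI left GFP) genes were called.

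No reactive astrocyte gene passed. Of the list of 27, 20 were tested, 3 had a positive and 17 a negative fold, with a median of -0.15 against 0 over all genes. By pair, the median was -0.07 with GFP and -0.24 with VEGFC. edgeR and DESeq2 called 0 of the 20, where edgeR called 0.0478% of all genes tested in astrocytes. In edgeR 2 negative folds had an unadjusted p under 0.05, as had 5.9% of all genes tested. Gfap, the classic marker of reactive astrocytes, was at 943 and 1040 CPM in sham and 898 and 891 CPM in TBI left (log2 fold -0.11 ± 0.11, adjusted p 0.98). C3, a complement gene, had -0.93 ± 0.41 (adjusted p 0.774) at 6.38 to 14.4 CPM, and Cxcl10, Serping1 and Osmr had -0.56 ± 0.23, -0.59 ± 0.3 and -0.28 ± 0.14. Apoe was at 5570 and 5560 CPM in sham and 5450 and 4990 CPM in TBI left astrocytes (-0.06 ± 0.12).

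Microglia had the highest share of calls, and most of it came from a few nuclei. There were 74, 42, 40 and 138 microglia in sham GFP, sham VEGFC, TBI left GFP and TBI left VEGFC, and 26 of 1990 genes passed (1.31%), 25 higher and 1 lower. In 20 of the 26, among them the neuronal genes Dlg2, Kcnh7 and Rbfox1, over 20% of the UMIs came from 1 nucleus. Neuronal RNA was 0.121% and 0.0754% of microglial UMIs in sham and 0.512% and 0.242% in TBI left. Without the 3 nuclei over 2% neuronal RNA 2 genes were called in edgeR, Atp8a2, which codes for a phospholipid flippase, and Fgf13, an intracellular member of its family. Atp8a2 was at 102 and 18.4 CPM in sham and 241 and 255 CPM in TBI left (log2 fold 1.96 ± 0.47, 2.03 without those nuclei), and Fgf13 was at 1510 and 2100 CPM in sham and 997 and 1080 CPM in TBI left (-0.74 ± 0.19, -0.85 without them). In microglia 6 list members were called, among them Gria1, Gria2 and Grin2b, the 3 tested AMPA, kainate and NMDA receptor subunits. These drew 30%, 40.3% and 52.2% of their UMIs from 1 nucleus. At 18.4 to 73.6 CPM in sham and 149 to 275 CPM in TBI left, they passed the filter on low counts through TBI left. Atp8a2, with 10 and 1 UMIs in sham, passed it the same way. Without the 3 nuclei over 2% neuronal RNA, Gria1, Gria2 and Grin2b were not tested. Stau2 (1.73 ± 0.46), Ube2h (1.17 ± 0.31) and Top1 (1.18 ± 0.33) passed with all nuclei. Without those 3 nuclei the calls of Stau2, Ube2h and Top1 were lost, with folds of 1.43, 1.16 and 0.93.

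No gene of the disease-associated microglia list passed in microglia. Of 25 listed, 14 were tested, with 2 positive and 12 negative folds and a median of -0.21. edgeR and DESeq2 called 0, where edgeR called 1.31% of all genes tested in microglia. In edgeR 2 negative folds had an unadjusted p under 0.05, as had 6.68% of all genes tested. Tyrobp, an adaptor of TREM2, was at 256 and 313 CPM in sham and 68.8 and 193 CPM in TBI left (log2 fold -0.96 ± 0.36, edgeR adjusted p 0.33), and Trem2 itself had -0.07 ± 0.27. Of homeostatic genes 12 were tested and 0 called, and P2ry12 had -0.01 ± 0.25. The smallest library had 40 microglia, so the depth in this class was low.

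Other classes had few calls. In OPC, 4 of 6580 genes passed (0.0608%), all higher. AC149090.1 was at 197 and 163 CPM in sham and 402 and 409 CPM in TBI left (log2 fold 1.18 ± 0.18, edgeR adjusted p 0.029), and Meg3, a long non-coding RNA high in neurons, had 1.02 ± 0.18. Neuronal RNA was 0.184% and 0.189% in sham and 0.286% and 0.299% in TBI left OPC, and without the 3 nuclei over 2% neuronal RNA the fold of Meg3 was 0.2 and AC149090.1 was the 1 gene called. Without any 1 of sham GFP, sham VEGFC and TBI left GFP, 0 genes were called in OPC. In fibroblasts, with 32 and 27 nuclei in TBI left GFP and TBI left VEGFC, 5 of 1749 genes passed (0.286%), all higher, 4 of them with over 20% of their UMIs from 1 nucleus, and they include the astrocyte glutamate transporter gene Slc1a2. The 7 astrocyte markers, all detected and with Slc1a2 among them, summed to 1640 and 2020 CPM in sham and 2460 and 2430 CPM in TBI left fibroblasts. Slc1a2 alone was at 82.5 and 55.6 CPM in sham and 557 and 415 CPM in TBI left. The part of astrocyte RNA in these calls was not tested. In choroid plexus epithelium 0 of 8649 genes passed in edgeR (0%), with 341 at an unadjusted p under 0.05, and DESeq2 called 0. Among genes that met the other conditions for being named, the smallest p in each direction belonged to Car10 (1.65 ± 0.28, adjusted p 0.439) and Tex10 (-1.29 ± 0.35, adjusted p 1). Car10 was at 127 and 69.5 CPM in sham and 247 and 384 CPM in TBI left. It was called under 8 of 10 alternative settings and Tex10 under 0, where the settings include fits with 1 library left out.

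In the classes named here, several other lists had 0 calls, where few of all genes tested were called either (0.217% in excitatory neurons, 0.182% in oligodendrocytes). Immediate early genes, which report recent neuronal activity, had 0 calls in each neuron class and subset, where in CA1-like neurons 18 of 22 were positive (median 0.13) and in CA3-like neurons 2 of 15 (median -0.24). The 25 genes for tau and its kinases and phosphatases had a median of 0.01 in excitatory neurons and 0 calls there. Mapt, the tau gene, was at 280 and 266 CPM in sham and 258 and 294 CPM in TBI left excitatory neurons, with overlapping groups and a log2 fold of 0.01 ± 0.11. Axon growth and injury response genes had 5 positive and 12 negative folds in excitatory neurons and 0 calls. The type I interferon list had 13 of 19 negative folds with a median of -0.2 in excitatory neurons and 0 calls, and Ifit1 in CA1-like neurons was its 1 call in any class or subset. Cholesterol synthesis genes had 8 of 8 negative folds in oligodendrocytes, with a median of -0.3 and 0 calls, and myelin genes had 10 of 20 on each side with a median of 0.01.

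Some called genes lay within 1.5 Mb of another called gene. Of 100 distinct called genes that have a position in GENCODE M21 or RefSeq (both GRCm38) and at most 20% of their UMIs from 1 nucleus, 21 fell into 9 runs in which the starts of neighbours are within 1.5 Mb, a distance chosen after seeing the data. Over all 17191 tested genes with a position, 0.582% were called. The run at chr17:34020792-36038435 held Ring1, Prrt1 and A930015D03Rik, all higher, among 77 tested genes (3.9%). The run at chr8:123411424-125261858 held Abcb10, 2810004N23Rik and Disc1, all higher, and Tubb3, lower, among 35 tested genes (11.4%). Tubb3 was called in oligodendrocytes, Abcb10 in CA3-like neurons and the others in excitatory neurons. The run at chr2:126152141-126588243 held Dtwd1 and Slc27a2, both lower, among 3 tested genes. The ends of a run are set at called genes, so the share called within it is high by construction. Whether called genes lie closer together than other tested genes was not tested.

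The makeup of the libraries differed as well. Fibroblasts were 2.34% and 1.32% of nuclei in sham GFP and sham VEGFC and 0.59% and 0.734% in TBI left GFP and TBI left VEGFC. Choroid plexus epithelium was 5.57% and 4.43% in sham and 3.96% and 3.62% in TBI left, and astrocytes 18.4% and 18.5% in sham and 19.4% and 21.2% in TBI left. In these 3 classes and in the CA1-like, dentate granule-like and CA3-like subsets the groups did not overlap, and each had an exact permutation p of 0.333, which is the smallest that 2 against 2 libraries allow, so no share could pass a threshold of 0.05. CA1-like neurons were 9.86% and 10.8% in sham and 9.08% and 8.27% in TBI left, and dentate granule-like neurons 15% and 15.6% in sham and 17.9% and 15.9% in TBI left. With choroid plexus, fibroblasts, mixed neurons and inhibitory clusters 2, 5 and 7 left out as possible neighbouring tissue, astrocytes were 22.2% and 22.1% in sham and 23.7% and 23.3% in TBI left. Dentate granule-like neurons were then 18% and 18.7% in sham and 21.9% and 17.5% in TBI left, with overlapping groups. Shares are relative, so fewer nuclei of one type and more of another cannot be told apart.

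**Figure D5:**
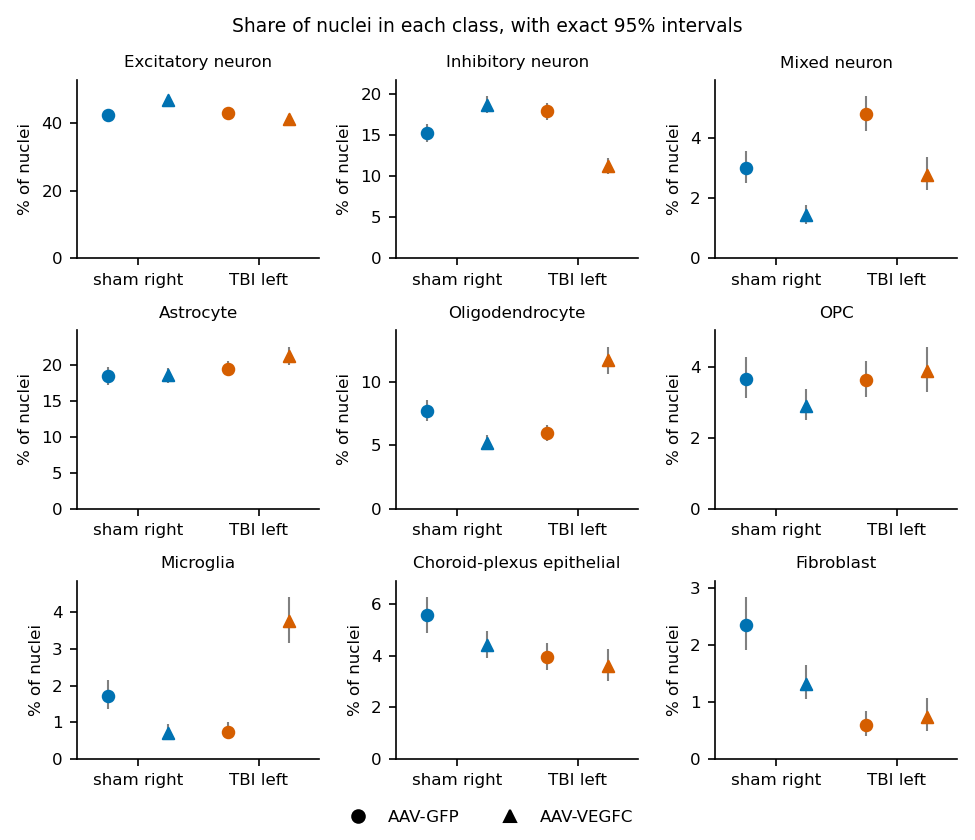
Share of nuclei (y axes, percent from 0) of each class in the 4 libraries, with exact 95% binomial intervals that cover counting error only. Circles are AAV-GFP and triangles AAV-VEGFC. Fibroblasts lie at 0.59% and 0.734% in TBI left against 2.34% and 1.32% in sham, and microglia are highest in TBI left VEGFC at 3.75%.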

How the data were processed

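Hippocampal nuclear RNA was read with 10X Genomics 3' v3.1 chemistry, per the labels' protocols. Cell Ranger 7.0.1, Scanpy and mm10 are named in the submitters' processing notes. The authors' matrix gives unnormalized counts of UMIs, as deposited. The deposited metadata give class, cluster, the percent of mitochondrial UMIs and a doublet score that ended at 0.099 at most, so no doublet caller was run.

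Counts were summed per class or subset and library (at least 20 nuclei each) and tested with edgeR 4.0.16 in R 4.3.3 (filterByExpr, TMM, quasi-likelihood, vector and context terms, 1 residual degree of freedom). The SE of a fold was taken as its size over the root of the F statistic. Subsets are the authors' clusters: excitatory 1 (CA1-like), 2 and 3 (dentate granule-like), 4 (CA3-like) and inhibitory 1, 3, 6 and 8 (interneurons). Named genes are up to 10 per direction by fold with at least 10 CPM, groups that do not overlap and under 20% of UMIs from 1 nucleus, else the 2 with the smallest p, plus up to 4 list members, genes called in 3 classes, Mapt, Apoe and Gfap. Members and lists were chosen with earlier results of these data known. The test was also run on counts simulated for CA1-like neurons and oligodendrocytes. Every simulated gene had the same spread, so that run cannot check the pooling of spread over genes. Alternatives were RLE, library totals, no filter, DESeq2 1.42.0, no vector term, all 6 libraries, each library left out, and glial nuclei without those over 2% neuronal RNA. Called genes outside this rule are counted and mostly not named, and 1 gene within it is not reported here.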

Additional observations from a re-analysis of the deposited data

Results flagged for a closer look

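The share of some classes moved in opposite directions in the pair of AAV-GFP libraries and the pair of AAV-VEGFC libraries. Each pair has 1 library per side, so these differences between vectors were not tested. For inhibitory neurons the log2 ratio of TBI left to sham was 0.24 in the GFP pair and -0.74 in the VEGFC pair, and for their cluster 5 it was 1.38 and -4.78. For oligodendrocytes it was -0.37 with GFP and 1.16 with VEGFC. For microglia it was -1.22 with GFP and 2.42 with VEGFC.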

How the results depend on the processing

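No paired analysis was possible because the groups compared share no replicate numbers, as far as pairing by number goes. Libraries were paired by vector instead, as the block of the fit. With library totals the calls were 84 in excitatory neurons, 0 in mixed neurons, 38 in astrocytes, 9 in CA1-like, 1 in dentate granule-like and 5 in CA3-like neurons. With no filter they were 82 in excitatory, 55 in inhibitory neurons, 32 in astrocytes, 7 in oligodendrocytes, 7 in OPC, 1 in choroid plexus, 2 in fibroblasts and 17 in CA1-like neurons. With DESeq2 they were 2 in excitatory neurons, 0 in mixed neurons, astrocytes, oligodendrocytes, OPC and fibroblasts, 1 in microglia, 3 in CA1-like, and 1 each in dentate granule-like and CA3-like neurons and interneurons. With no vector term they were 13 in excitatory and 3 in mixed neurons, 0 in astrocytes, 1 in oligodendrocytes, 7 in microglia, 1 in choroid plexus, 16 in CA1-like, 11 in dentate granule-like neurons and 3 in interneurons. With all 6 libraries they were 3 in excitatory and 0 in mixed neurons, 37 in astrocytes and 3 in choroid plexus, and with RLE 1 in choroid plexus. Without nuclei over 2% neuronal RNA they were 16 in astrocytes, 1 in OPC and 2 in microglia, and the fold of Snhg11 in astrocytes reversed to 0.1. Counting genes with at most 20% of UMIs from 1 nucleus, an alternative chosen after seeing the data, left 2 in OPC, 6 in microglia and 1 in fibroblasts.

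Leaving out 1 library at a time, with no vector term and the lone library assumed to vary like the others, gave 13 to 185 calls in excitatory, 0 to 733 in inhibitory and 8 to 43 in mixed neurons, 12 to 100 in astrocytes, 6 to 20 in oligodendrocytes, 0 to 5 in OPC, 14 to 48 in microglia, 1 to 12 in choroid plexus, 0 to 9 in fibroblasts, 2 to 103 in CA1-like, 15 to 138 in dentate granule-like, 4 to 69 in CA3-like neurons and 0 to 46 in interneurons. The log2 ratio of shares ranged from -0.15 to -0.01 in excitatory, -0.59 to 0.09 in inhibitory and 0.28 to 1.35 in mixed neurons, 0.07 to 0.2 in astrocytes, -0.09 to 0.89 in oligodendrocytes, 0.04 to 0.37 in OPC, -0.57 to 1.77 in microglia, -0.56 to -0.23 in choroid plexus and -1.83 to -1 in fibroblasts. Of 92 named calls, 90 were kept with RLE, 56 with library totals, 72 with no filter, 34 with no vector term, 58 with all 6 libraries and 2 with DESeq2. Without sham replicate 1 or 2, 28 or 39 were kept, and without TBI left replicate 4 or 6, 77 or 29. The cause of these differences was not tested. The unfolded protein response list had no tested member in fibroblasts without either sham library, so it gave no value there. With 2 libraries a group and 1 residual degree of freedom, the spread is largely borrowed from other genes. The degrees of freedom so borrowed were 8.65 in inhibitory neurons and 31.4 in excitatory neurons. They were infinite in oligodendrocytes, fibroblasts, CA1-like neurons and interneurons, where a gene's own spread has no weight.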
